A study of Sus scrofa with 5 samples.

Results

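The expression of PON1, PON3 and PCYOX1 was examined in the backfat of pigs with divergent muscle fatty acid composition. PON1 and PON3 are paraoxonases, and PCYOX1 is prenylcysteine oxidase. The 3 genes were chosen on earlier results of the same group contrast in the same animals, so their group differences are given here as a description and without a test. Of the 3 genes, 2 had a probe set annotated to them alone. PCYOX1 had 3 probe sets, called A, B and C here in the order of their identifiers, and PON3 had 1, which makes 4 of the 23999 probe sets tested and 2 of the 6765 genes with a probe set. PON1 had no probe set under this annotation and was not measured.

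The arrays held backfat RNA of 5 females from a backcross of Iberian × Landrace boars to Landrace sows, 1 animal per array. All were raised intensively on a cereal-based diet without restriction and were fasting at slaughter. BC4, BC5 and BC6 formed the H group, whose muscle was richer in polyunsaturated fatty acids, and BC2 and BC3 formed the L group, whose muscle was richer in saturated and monounsaturated fatty acids. The groups were the extremes of a principal component of muscle fatty acid and carcass traits. No animal was treated or carried an engineered allele.

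Paraoxonases are calcium-dependent esterases and lactonases. PON1 and PON3 are made mainly in the liver and circulate on high density lipoprotein (HDL), where they limit the accumulation of oxidised lipids, while PON2 stays inside the cells of many tissues. Prenylated proteins carry a farnesyl or geranylgeranyl group on a cysteine, and when they are degraded PCYOX1 cleaves the remaining prenylcysteine, releasing hydrogen peroxide. PCYOX1 is also found on circulating lipoproteins. In the RefSeq annotation of Sscrofa11.1 the paraoxonase genes are neighbours in the order PON1, PON3 and PON2, and PCYOX1 lies on another chromosome.

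The values are log2 expression per probe set, and the lowest value on the arrays, a floor of 2.17, stands for no measured signal. Some probe sets repeated a higher lowest value, such as the hepatocyte marker FGG with 2.73 on BC3, BC4, BC5 and BC6. A value above the floor is therefore not always a signal, and counts of genes above the floor can include such probe sets. All 5 arrays had the floor value in 5576 probe sets, and the array medians lay between 4.21 and 4.29. Of the adipocyte markers, 5 of 7 had a probe set and all were above the floor. FABP4, the fatty acid carrier of adipocytes, had log2 values between 15.36 and 15.49 on the 5 arrays. Values of different probe sets are not compared as levels, because probes differ in their affinity.

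PON3 expression was lower in the H group. Its only probe set had log2 values of 10.29 on BC4, 10.55 on BC5 and 8.03 on BC6 in the H group, against 12.31 on BC2 and 10.88 on BC3 in the L group. All H arrays lay below both L arrays, and BC6 stood apart at the low end and BC2 at the high end. The H group averaged 9.62 ± 1.39 (SD, n = 3) and the L group 11.60 ± 1.02 (SD, n = 2). The difference of -1.97 (standard error 1.10) corresponds to 0.255 times the L level, or a 3.92-fold lower signal in H. The gap between the highest H array and the lowest L array was 0.326, which was smaller than the range of 2.52 within the H group and the difference of 1.44 between both L animals. In bulk tissue, less RNA per cell and fewer cells that express a gene cannot be told apart.

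**Figure D1:**
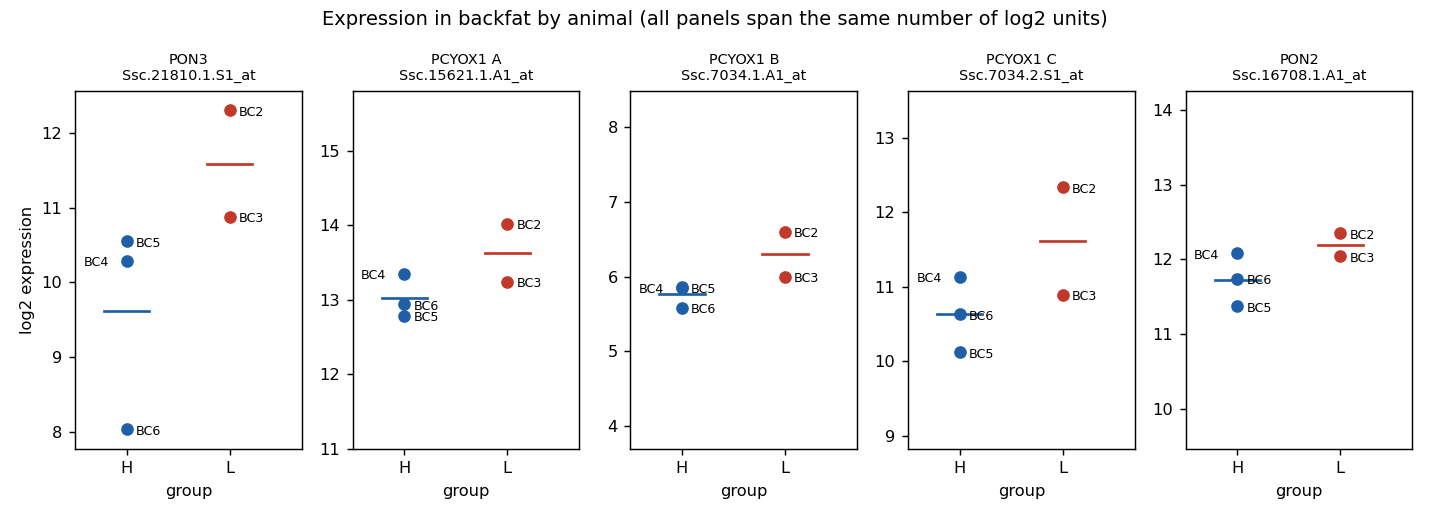
Log2 expression (y axis) of PON3, the 3 probe sets of PCYOX1 and PON2 by group (x axis, H in blue and L in red), 1 point per animal with a line at the group mean, and each panel spanning the same number of log2 units. PON3 ran from 8.03 on BC6 to 12.31 on BC2, and BC2 was the highest array in every panel.

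PON3 was among the most variable probe sets of these arrays. Its values spanned 4.29 on the log2 scale over the 5 animals, a 19.5-fold range, and 0.277% of the 18423 probe sets above the floor on some array spanned as much or more. A gene chosen for a large group difference tends to have a wide span, so nothing further is read from that share. The widest step between neighbouring values lay between BC6 and BC4, both of the H group. Without BC6 the difference was -1.17, and without BC2 it was -1.25. It was -2.31, -2.43 and -2.69 without BC4, BC5 and BC3.

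PCYOX1 expression was also lower in the H group in each of its 3 probe sets, with smaller differences. Probe set A had log2 values of 13.35 on BC4, 12.78 on BC5 and 12.94 on BC6 in the H group, against 14.02 on BC2 and 13.24 on BC3 in the L group. The groups overlapped, since BC4 lay above BC3. The H group averaged 13.02 ± 0.295 (SD, n = 3) and the L group 13.63 ± 0.549 (SD, n = 2), a difference of -0.61 (standard error 0.344), or 0.656 times the L level.

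Probe set C of PCYOX1 gave the largest difference of the 3. It had log2 values of 11.13 on BC4, 10.12 on BC5 and 10.63 on BC6 in the H group, against 12.33 on BC2 and 10.89 on BC3 in the L group. BC4 again lay above BC3, and BC5 was the lowest array, as in probe set A. The difference was -0.98 (standard error 0.619), or 0.507 times the L level.

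Probe set B of PCYOX1 had log2 values of 5.85 on BC4, 5.86 on BC5 and 5.58 on BC6 in the H group, against 6.60 on BC2 and 6.0 on BC3 in the L group. Here the groups did not overlap, with a gap of 0.14, and BC6 rather than BC5 was the lowest array. The difference was -0.54 (standard error 0.239), or 0.689 times the L level. The probe sets of this gene therefore shared their direction and their highest array, but not the order of the H animals.

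Setting each H array against each L array gave 6 pairs per probe set. The H array was the lower one in 6 of 6 pairs for PON3 and for probe set B of PCYOX1, and in 5 of 6 pairs for both other probe sets of PCYOX1. The exception was the pair of BC4 and BC3, where BC4 lay above by 0.109 in probe set A and by 0.244 in probe set C. Of the 4 probe sets, 2 had all H arrays below both L arrays, which held for 9.38% of the 12730 probe sets with 5 distinct values. As this contrast chose the genes, nothing is read from that count. In the limma fit over all 23999 probe sets, 0% met the limits of 0.01 for the p-value, 0.1 for the Benjamini-Hochberg adjusted p and 1.2 for the fold, and 762 had an unadjusted p under 0.05. None of the 4 probe sets of PON3 and PCYOX1 passed.

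The animal BC2 carried much of the difference of PCYOX1. Without BC2 the differences were -0.22, -0.24 and -0.26 in probe sets A, B and C. Without BC3, the other L animal, they were -0.995, -0.84 and -1.70. Leaving out any H animal gave values between -1.23 and -0.447 over the 3 probe sets. The direction was the same without each animal in turn for all 4 probe sets, with a lone L array in both cases where an L animal was left out. For PON3 and probe set B the groups did not overlap, so leaving out 1 animal could not reverse it.

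**Figure D2:**
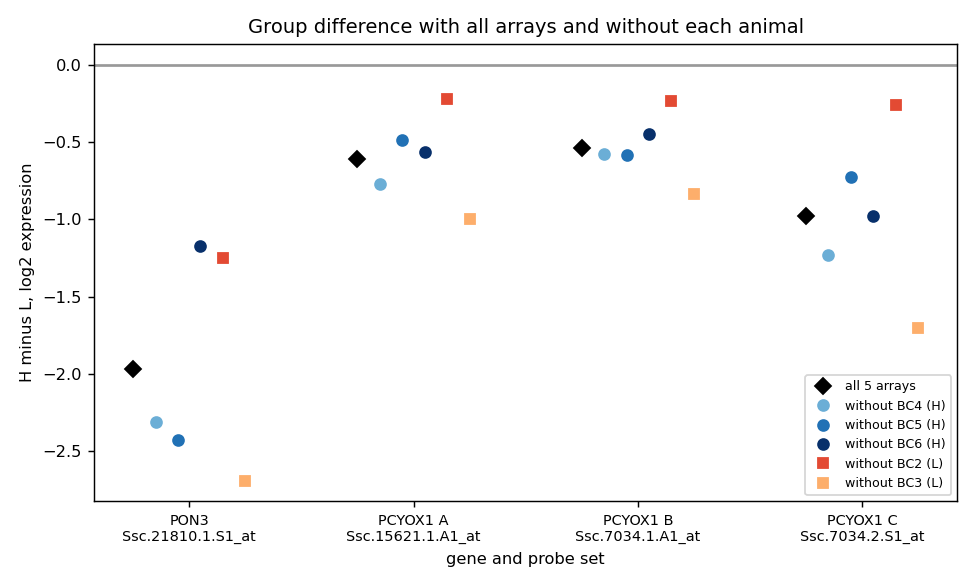
Difference of the group means, H minus L, in log2 expression (y axis) for each probe set of PON3 and PCYOX1 (x axis), with all 5 arrays (diamond) and without each animal (circles for H, squares for L). Every point lies below 0, and for PCYOX1 those without BC2 come nearest to it, at -0.22 to -0.26.

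BC2 was the highest of the 5 arrays in all 4 probe sets of PON3 and PCYOX1, which was the case in 21.4% of the probe sets with 5 distinct values. The group contrast chose the genes, and 3 of the 4 probe sets measure PCYOX1, so nothing is read from that count. BC2 lay above BC3, the other L animal, by 1.44 in PON3 and by 0.776, 0.603 and 1.44 in probe sets A, B and C of PCYOX1. Within the H group, the range was 0.571, 0.275 and 1.01 in the same PCYOX1 probe sets. In PCYOX1 the difference between both L animals was therefore larger than that between the group means in each probe set, and in PON3 the range within the H group was larger than that difference.

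PON2, the intracellular paraoxonase and a relative outside the 3 genes, was measured by 1 probe set. The study also lists PON2 among its differentially expressed genes of the same group contrast. Its direction is therefore no independent comparison. It had log2 values of 12.08 on BC4, 11.37 on BC5 and 11.74 on BC6 in the H group, against 12.35 on BC2 and 12.04 on BC3 in the L group. The groups overlapped, BC2 was the highest array and BC5 the lowest. The H group averaged 11.73 ± 0.357 (SD, n = 3) and the L group 12.19 ± 0.219 (SD, n = 2), a difference of -0.46 (standard error 0.274). The span over the animals was 0.977, against 4.29 for PON3.

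After each profile was centred on its own mean, the likeness of a pair of profiles was measured as the root-mean-square difference over the 5 arrays, on the log2 scale. Probe set A of PCYOX1 differed by 0.178 from PON2, by 0.202 and 0.314 from the other probe sets of PCYOX1 (B and C), and by 1.11 from PON3. Probe sets B and C differed by 0.48. Of 4622 probe sets of other genes that spanned at least 0.5, 137 were as near to probe set A as PON2 or nearer, and 203 were as near as probe set B or nearer, but 2232 (48.3%) were as near to probe set B as C or nearer. Profiles of the same gene were thus not always nearer than those of other genes. As the study called PON2 in the same contrast as PCYOX1, nothing is read from its nearness.

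PON3 differed from the probe sets of PCYOX1 by 1.08 to 1.11 and from PON2 by 1.24. Of 4624 probe sets of other genes, 149 to 227 (3.22% to 4.91%) were as near to PON3 as a PCYOX1 probe set or nearer. For PON2 the number was 802. Seen from PCYOX1, 96.5%, 96.4% and 86.9% of 4622 probe sets were as near to A, B and C as PON3 or nearer. The measure is not scaled to the span of a profile, which was 4.29 for PON3. As PON3 and PCYOX1 were chosen on the same contrast, in which the study also called PON2, no likeness is read from these shares. The differences of PON3 from PCYOX1 and PON2 were widest on BC6, where PON3 was 2.39 below its own mean and PON2 had a value of -0.17. On BC2, PON3 was 1.90 above its mean, against 0.62 to 1.31 for PCYOX1 and 0.43 for PON2.

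**Figure D3:**
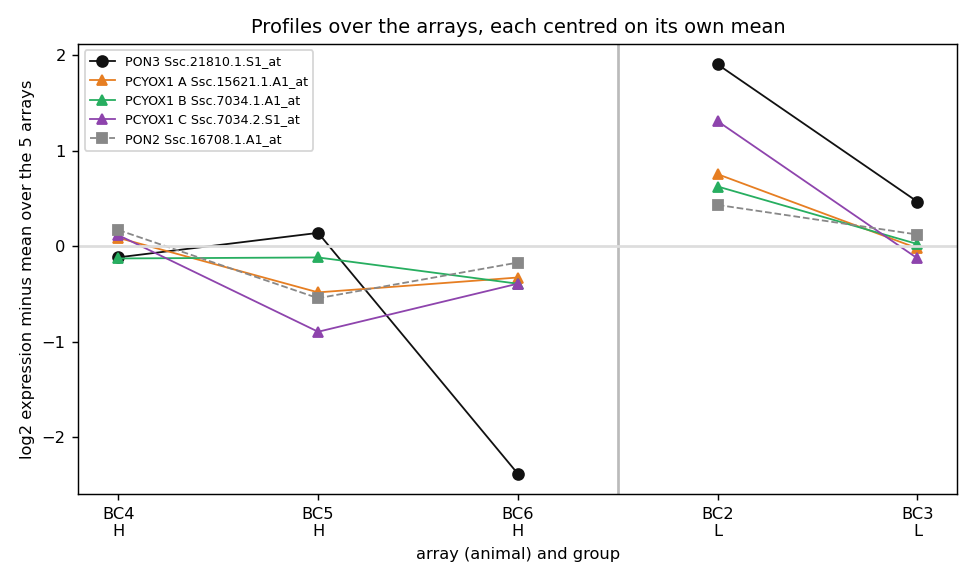
Log2 expression of PON3, the 3 probe sets of PCYOX1 and PON2, each minus its own mean over the 5 arrays (y axis), by array and group (x axis, H arrays left of the grey line and L arrays right of it); thin lines join arrays of 1 group as a guide to the eye. All 5 profiles peak on BC2, and PON3 has its lowest value, 2.39 below its mean, on BC6.

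The genes with profiles most like that of PON3 were NEB, which encodes the sarcomere protein nebulin, at a root-mean-square difference of 0.375, TMEM25, a transmembrane protein, at 0.404, AZGP1, a zinc-binding glycoprotein secreted by adipocytes, at 0.605, LOC100154873 at 0.623 and P2RX4, an ATP-gated ion channel, at 0.754. NEB had log2 values of 4.94, 5.32 and 3.46 on BC4, BC5 and BC6 of the H group, against 6.71 and 5.31 on BC2 and BC3 of the L group. AZGP1 had 5.86, 7.61 and 5.29 on the same H arrays, against 9.29 and 7.79 on the L arrays. Like PON3, these genes were highest on BC2 and lowest on BC6. The skeletal muscle markers read below were instead all highest on BC5. A search over many probe sets and 5 arrays will find near profiles for most patterns, so these are descriptions.

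The profiles most like probe set A of PCYOX1 were those of SUGCT, a CoA transferase, at a root-mean-square difference of 0.0485, TALDO1, the transaldolase of the pentose phosphate pathway, at 0.0547, HIBCH, of valine breakdown, at 0.0586, NDUFAB1, the mitochondrial acyl carrier protein, at 0.0745, and MDH2, the mitochondrial malate dehydrogenase, at 0.0806. TALDO1 had log2 values of 12.06, 11.61 and 11.67 on BC4, BC5 and BC6 of the H group, against 12.81 and 11.92 on BC2 and BC3 of the L group. For probe set C the nearest were PEX3, a peroxisome biogenesis factor, at 0.0924, AQP11, an aquaporin, at 0.122, and BCKDHB, which takes part in the breakdown of branched-chain amino acids, at 0.149, followed by DHRS7 and ALDH1L1. For probe set B they included UQCR10 and NDUFB2, subunits of the respiratory chain, at 0.0624 and 0.0655. Among the 5 nearest profiles of each of the 3 PCYOX1 probe sets, no gene was shared.

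Related genes were set beside PON3 and PCYOX1 in 4 lists, with 1 probe set per gene, the one with the highest mean. Over all 18423 probe sets above the floor on some array the median difference was 0.0017, and the H mean lay below the L mean in 44.6% of those with a direction. No gene of any list passed in the limma fit.

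Of 13 genes of HDL and oxidised lipoprotein handling, 11 had a probe set, and the H mean lay above the L mean for 9 and below it for 2. The median difference was 0.14. PON2, at -0.46, and PLA2G7, a lipoprotein-associated phospholipase that cleaves oxidised phospholipids, were the 2 with lower H means. APOA1, the main HDL protein, had log2 values of 12.20, 12.57 and 12.34 on BC4, BC5 and BC6 of the H group, against 11.29 and 11.98 on BC2 and BC3 of the L group. All H arrays lay above both L arrays, the opposite order of PON3, and BC2 was the lowest array. All H arrays above both L arrays was the order of 11.5% of the 12730 probe sets with 5 distinct values. The difference of APOA1 was 0.73 (standard error 0.275). ABCA1, which loads cholesterol onto HDL, differed by 0.32 (standard error 0.406) and CLU, a chaperone carried on HDL, by 0.26 (standard error 1.12). APOA2, at most at 2.18, lay near the floor on all arrays. APOM, LCAT and PLTP were low too, at most at 2.66, 3.05 and 3.54, and APOM had the same value on all arrays but BC5. The count of 9 includes these genes of little or no signal. The median of the list was 0.08 without BC2, 0.08 without BC3 and 0.03 without BC5.

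Of 10 genes of peroxide removal, all were measured, and the H mean lay below the L mean for 8. The median difference was -0.28. PRDX6, a peroxiredoxin that reduces phospholipid hydroperoxides, had log2 values of 11.80, 10.99 and 11.09 on BC4, BC5 and BC6 of the H group, against 12.19 and 11.64 on BC2 and BC3 of the L group. The groups overlapped in BC4 and BC3, and BC2 was the highest array, as in PCYOX1. Its difference was -0.62 (standard error 0.366), that of PRDX2, a cytosolic peroxiredoxin, -0.62 (standard error 0.388), and that of PRDX5, another peroxiredoxin, -0.54 (standard error 0.194). GPX3, the secreted glutathione peroxidase, went the other way at 0.41 (standard error 0.659). BC2 was the highest array for 6 of the 10 genes. The median of the list was -0.12 without BC2, -0.47 without BC3, -0.17 without BC5 and -0.16 with the mean of all probe sets of each gene.

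Of 12 genes of protein prenylation and prenylcysteine release, 6 were measured and 5 of these had a value above the floor. The H mean was lower for 3 of them. The median difference of -0.03 turned to 0.04 without BC5 and to 0.03 with array weights, so the list has no settled direction. FDPS, which makes farnesyl diphosphate, had log2 values of 8.10, 8.15 and 8.43 on BC4, BC5 and BC6 of the H group, against 9.68 and 8.39 on BC2 and BC3 of the L group. Only BC2 stood apart, and BC6 lay above BC3. The difference was -0.81 (standard error 0.469). FNTA and FNTB, the subunits of farnesyltransferase, differed by -0.15 (standard error 0.0956) and 0.18 (standard error 0.235), and RABGGTB, a subunit of the enzyme that prenylates Rab proteins, by -0.03 (standard error 0.202). PCYOX1L, the relative of PCYOX1, had no probe set.

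The study's own LXR/RXR activation genes were picked by the study on the same animals, and so give no independent evidence of a direction. Without PON1, PON3 and PCYOX1 they number 13, of which 10 were measured and 6 had a value above the floor, with lower H means for 5. Of these 5, ALB and S100A8 each differed by only -0.002, and S100A8 was at most at 2.17. The median difference of -0.02 turned to 0.20 without BC2 and to 0.05 without BC6, and was -0.60 without BC3. FASN, the fatty acid synthase, differed by -1.31 (standard error 1.98) and had log2 values of 13.27, 8.59 and 10.90 on BC4, BC5 and BC6 of the H group, against 13.79 and 10.66 on BC2 and BC3 of the L group. Its lowest array was BC5, whereas that of PON3 was BC6. SCD, the stearoyl-CoA desaturase, differed by -0.03 (standard error 1.22), and AHSG and APOC3 were at most at 2.65 and 2.99.

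**Figure D4:**
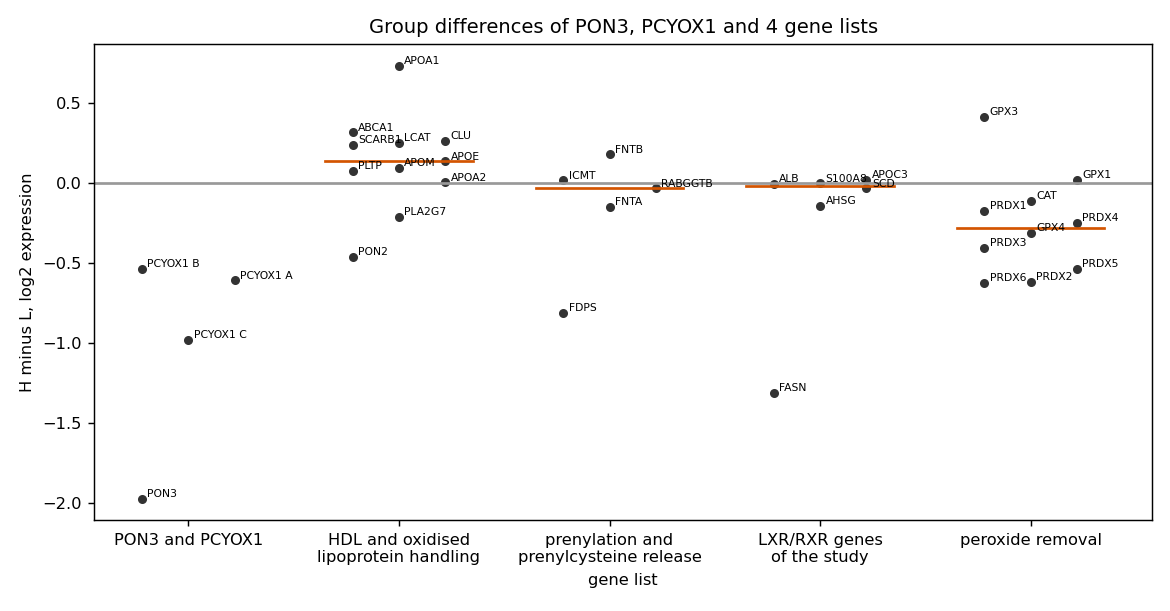
Difference of the group means, H minus L, in log2 expression (y axis) for the probe sets of PON3 and PCYOX1 and for the genes of 4 lists above the floor on some array (x axis), 1 point per probe set, with an orange line at the median of each list. PON3 has the lowest value shown, at -1.97, and APOA1 the highest, at 0.73.

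Markers of other cell types were read on the same arrays, as the log2 of their summed signal. PON3 is best known from hepatocytes, and 6 of 8 measured hepatocyte markers had a value above the floor, with SERPINA1 and APOH at the floor on all. Of these 6, APOA2, TTR, AHSG and FGG were at most at 2.18, 2.23, 2.65 and 3.18, and so carried little or no signal. The summed level of all 8 was 5.33 to 5.84 in the H group and 5.37 to 6.06 in the L group, where 8 probe sets at the floor sum to 5.17. ALB, the most abundant liver transcript, had log2 values of 3.81, 4.42 and 2.66 on BC4, BC5 and BC6, against 4.69 and 2.58 on BC2 and BC3. The markers' part in the values of PON3 was not tested.

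Several marker sums had an extreme value on BC6 or BC5, the arrays with the lowest values of PON3 and PCYOX1. Macrophage markers, 4 of 7 measured and all above the floor, summed to 7.61, 7.38 and 9.79 on BC4, BC5 and BC6, against 8.03 and 8.96 on BC2 and BC3. Fibroblast and preadipocyte markers, 4 of 6 measured with COL3A1 at the floor, summed to 14.36, 14.29 and 15.33 on the H arrays, against 14.96 and 14.79 on the L arrays. Both lists were highest on BC6. Skeletal muscle markers, 5 of 7 measured and all above the floor on some array, summed to 5.23, 9.20 and 4.67 on the H arrays, against 4.91 and 7.17 on the L arrays, and so were highest on BC5.

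Adipocyte markers summed to 15.93 and 15.85 on BC5 and BC6 of the H group, against 15.95 and 15.87 on BC2 and BC3 of the L group, and were highest on BC4. Single markers varied more, and ADIPOQ, which encodes adiponectin, had log2 values of 12.20, 9.09 and 10.92 on BC4, BC5 and BC6 of the H group, against 11.82 and 10.52 on BC2 and BC3 of the L group. BC5 was the lowest array for ADIPOQ and LEP, as it was for PON2 and for probe sets A and C of PCYOX1. It was the highest for FABP4 and for LIPE, the hormone-sensitive lipase, and PNPLA2, the first lipase of triglyceride breakdown, was lowest on BC6.

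Endothelial markers, 7 of 7 measured and above the floor on some array, summed to 13.55, 14.20 and 13.31 on BC4, BC5 and BC6 of the H group, against 13.08 and 13.63 on BC2 and BC3 of the L group. The H mean was higher for 6 of the 7, with a median difference of 0.33. Smooth muscle markers, 5 of 6 measured and above the floor, summed to 13.87, 13.06 and 13.32 on the H arrays, against 12.68 and 13.55 on the L arrays. The H mean was higher for 5 of the 5, with a median difference of 0.32. Both sums were lowest on BC2, the array where PON3 and PCYOX1 were highest. The part of any of these cell types in the values of PON3 and PCYOX1 was not tested. Of 4 measured lymphocyte markers, CD3E and CD3D were at the floor on all arrays.

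The signal of the 3′ end over that of the 5′ end of a control transcript is a sign of RNA integrity. For GAPDH this log2 difference was 1.90, 2.49 and 1.81 on BC4, BC5 and BC6 of the H group, against 1.52 and 1.82 on BC2 and BC3 of the L group. For actin it was 4.03, 4.8 and 3.85 on the H arrays, against 4.06 and 4.77 on the L arrays. GAPDH had its smallest value on BC2, the array where PON3 and PCYOX1 were highest. In an older GAPDH control set the values were 1.95, 2.20 and 1.89 on the H arrays, against 1.97 and 2.10 on the L arrays, so that BC2 was not the smallest there. In the older actin set they were 3.14, 5.04 and 2.90 on the H arrays, against 3.59 and 4.41 on the L arrays. BC5, the lowest array for PON2 and for probe sets A and C of PCYOX1, had the largest value in each of the 4 control sets. The groups overlapped in all 4. In the older actin set the 5′ signal itself was low, between 3.74 and 4.63, and it was highest on BC5. The part of RNA integrity in the differences of PON3 and PCYOX1 was not tested.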

How the data were processed

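Backfat RNA of 5 animals was hybridized to Affymetrix porcine arrays, and the authors deposited log2 values. They adjusted background, normalized between arrays and summarized per probe set, by GCRMA according to the methods and by RMA according to the submitters' processing notes. Such summaries compress low signals, and values at the floor have no order. The GEO titles give animal numbers, and H and L follow the study's own listing of these numbers. The tissue is taken as backfat, as labelled, although the extraction protocol mentions liver. Of 24123 probe sets, 124 controls were left out and 23999 were fitted with limma 3.58.1 (R 4.3.3) as H minus L, without covariates and with Benjamini-Hochberg adjustment. Symbols came from the platform annotation, with 1 symbol for 10069 probe sets, several for 198 and none for 13732.

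PON1, PON3 and PCYOX1 and all gene and marker lists were chosen with earlier results of these data known. The genes named are PON3, PCYOX1, up to 4 of each list with the largest difference in size, and the 5 nearest profiles per probe set of PON3 and PCYOX1. PLA2G7, APOA2, APOM, LCAT, PLTP and the marker genes named were singled out after their values were seen. The alternatives were other thresholds, a filter on the 40% dimmest probe sets, median centring, other variance models, array weights, the mean of all probe sets of a gene and leaving out each animal. The number of arrays, 3 against 2, limits the precision. The p-values set a group difference against the variance between animals within groups, which limma moderates over all probe sets.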

Additional observations from a re-analysis of the deposited data

How the results depend on the processing

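No paired analysis was made, because H and L share no animal numbers and the labels give no families. The study avoided sibs within a group, and relatedness between the groups is not given. PON1 has no value under any setting. The differences of PON3 (-2.69 to -1.17 without 1 animal) and PCYOX1 (-0.995 to -0.219) kept their direction under all 8 alternatives each, as did the further probe sets of PCYOX1 under settings added after seeing the data. For PON3, with 1 probe set and groups that did not overlap, averaging probe sets or leaving out 1 animal could not change the direction. Leaving out 1 animal could not change it for probe set B of PCYOX1 either. The probe sets passing numbered 0 to 286 without 1 animal, with 160 without L replicate 2 and 286 without L replicate 3, where the lone L array is assumed to vary like the H arrays, and 762 at an unadjusted p under 0.05; other alternatives gave 0. The median of HDL and oxidised lipoprotein handling was 0.0942 with median centring, 0.239 without the dimmest 40% of probe sets and 0.0256 to 0.145 without 1 animal. That of protein prenylation was 0.0342 with array weights and -0.137 to 0.0401 without 1 animal, and that of the LXR/RXR genes -0.598 to 0.202. Peroxide removal stayed between -0.47 and -0.117. The cause of these changes was not tested, beyond fewer arrays or genes. Genes near the floor carry little signal over background and limit the HDL and LXR/RXR lists.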

Other observations

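Genes next to the paraoxonases and to PCYOX1 in the RefSeq annotation of Sscrofa11.1 were read on the same arrays, chosen by position after the lists were set. The neighbours PPP1R9A, ASB4, TIA1 and C3H2orf42 had no probe set annotated to them alone and were not measured. PDK4, a kinase that inhibits pyruvate dehydrogenase and lies near PON2, had log2 values of 14.01, 13.44 and 13.79 on BC4, BC5 and BC6 of the H group, against 13.78 and 13.90 on BC2 and BC3 of the L group in its brighter probe set, a difference of -0.09 (standard error 0.207). PEG10, an imprinted gene on the PON1 side, differed by 0.46 (standard error 0.774) in the only one of its 3 probe sets above the floor. FAM136A, on the side of PCYOX1, had 8.42, 8.40 and 8.46 on the H arrays, against 8.58 and 8.81 on the L arrays, a difference of -0.27 (standard error 0.0821) with groups that did not overlap. All H arrays lay below both L arrays in 9.38% of the 12730 probe sets with 5 distinct values. SNRPG, a spliceosome protein on the same side, differed by 0.07 (standard error 0.0498) and 0.02 (standard error 0.0887) in its probe sets, with groups that overlapped in both. None of the probe sets of these 4 genes above the floor was highest on BC2.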
